A study of Homo sapiens with 4 samples.

Results

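The sites described here are mutated bases in RNA from PARP1 immunoprecipitates of HK-2 cells, on the strand opposite to an annotated gene. HK-2 is an established, immortalised line of human proximal tubule epithelium. The immunoprecipitates (IPs) were taken from its lysate with beads carrying a Flag antibody, and the RNA in them was sequenced. The series holds 4 samples, 2 PARP1 IPs and 2 inputs, and 1 list of sites for each IP was used. The inputs were not analysed here, so no enrichment over input could be computed, and the labels do not say which cells carried a Flag tag, or whether the IPs came from separate cultures. All samples carried the label of the HK-2 line and no treatment was labelled.

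The authors' lists assign every site to a region, and a site was a member when that region was antisense. This took 16143 of 166248 sites of IP 1 (9.71%, exact 95% binomial interval 9.57 to 9.85%) and 28355 of 229782 sites of IP 2 (12.3%, interval 12.2 to 12.5%). Each site was 1 base long and came with the number of tags (reads) over it and the number of those that carried the mutation. The gene whose opposite strand the site lies on is called its host below. Sites that the lists placed in the intron or exon of the same gene, on its own strand, are called its sense sites. Intervals cover counting error only: reads were amplified and carry no molecular identifier, so they cannot be counted as molecules.

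PARP1 is a nuclear enzyme that joins ADP-ribose units to proteins at DNA breaks and in chromatin, and it also binds RNA. Antisense transcription comes from several textbook sources: annotated antisense RNA genes, promoters that fire in both directions, and polymerases that run past the end of a gene into a neighbour on the other strand. Such RNAs are mostly nuclear and short-lived. An antisense read can also come from a library that does not keep strand fully, and the strand protocol is not given in the sources used here.

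Reference sequence around antisense sites that both IPs listed at the same base shows what these sites look like. They were taken where an annotated exon or a RefSeq promoter window covered the base, which held for 97 of 385 such bases. Each is written 5′ to 3′ on the strand of the site, so it is the reverse complement of the host, with each mutated base in capitals. The coordinates are GRCh38.

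The first 3 are among the shared sites with the most mutated tags for which sequence was at hand, and PSG4 had the most antisense sites per length of the hosts ranked by density. ITGA3 encodes integrin alpha 3, a laminin receptor of epithelia. Both of its sites lay over annotated exon sequence near the gene's end, at chr17:50089984-50090012 and chr17:50089920-50089948 on the minus strand. SLC26A10 belongs to a family of anion transporters, and its site at chr12:57625675-57625703 on the minus strand fell inside B4GALNT1, a glycosyltransferase gene on that strand. PSG4 is a pregnancy-specific glycoprotein gene, and chr19:43205641-43205669 on the plus strand held 2 shared sites, 8 and 25 bases upstream of the start that RefSeq gives it.
ITGA3 site 1: tggaggatcccgccGtgccccagcacagt
ITGA3 site 2: tccttcctgctgcaTtccctgcgagttca
SLC26A10: gctactgccccttaAcaggctccccaggg
PSG4: gcctcCtcccggggcaggagcaTttctca

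The next 3 hosts were picked after their values were seen, because they are matrix genes, the subject named in the series title, and had a shared antisense base over an exon. FN1 encodes fibronectin, COL4A1 a chain of collagen IV, and HSPG2 the basement membrane proteoglycan perlecan. The windows are chr2:215404517-215404545, chr13:110181341-110181369 and chr1:21880435-21880463, all on the plus strand.
FN1: tactgcctgggctgTcctcttcgggtaag
COL4A1: cgacctggagtcccCggtggccccatgtc
HSPG2: ctaagtcccacgctGgccatcttggtgtt

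ZFPM1 encodes a cofactor of GATA transcription factors. RefSeq (GRCh38.p14) places the start of an antisense gene, ZFPM1-AS1, inside it, and the shared site at chr16:88531195 on the minus strand lay 142 bases upstream of that start. The whole RefSeq window, chr16:88531004-88531303, is given because it puts an antisense site beside an annotated antisense promoter.
ZFPM1-AS1 promoter: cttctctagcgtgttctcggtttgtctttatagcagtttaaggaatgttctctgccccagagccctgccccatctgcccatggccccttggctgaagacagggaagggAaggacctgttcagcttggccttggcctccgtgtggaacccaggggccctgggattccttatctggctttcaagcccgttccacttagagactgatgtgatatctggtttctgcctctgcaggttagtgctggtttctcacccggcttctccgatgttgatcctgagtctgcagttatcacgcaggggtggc

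Antisense sites were thinly covered. In IP 1, 94.5% of them (interval 94.1 to 94.8%) had 2 tags with both mutated, and in IP 2 it was 94.6% (94.3 to 94.8%). More than 2 tags covered 5.53% of antisense sites in IP 1 and 5.42% in IP 2. Among intronic sites the shares were 19.7% and 21.2%, and among intergenic sites 6.60% and 6.12%. The difference from intronic sites was 14.2 and 15.8 percentage points, while that from intergenic sites was 1.07 and 0.707 points (adjusted p = 5.73e-06 and 4.55e-05 by Fisher's exact test, two-sided, adjusted by Benjamini and Hochberg over 16 tests). Sites of 1 library are not replicates, so these tests compare the sites of each library and not a condition.

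The kind of mutation also placed antisense sites near intergenic ones. Substitutions made up 80.4% of antisense sites in IP 1 and 81.5% in IP 2, against 70.1% and 69.6% of intronic sites (adjusted p = 1.09e-168 in IP 1, the same Fisher's exact test). Intergenic sites held 81.3% and 81.9% substitutions, a difference of 0.960 points in IP 1 (adjusted p = 0.0129) and 0.460 points in IP 2 (adjusted p = 0.113, Fisher's exact test). Deletions were 14.8% and 14.04% of antisense sites, and insertions 4.85% and 4.47%. The base under a substitution had overlapping intervals for antisense and sense sites over exons. Over exons, 28.9% of antisense substitutions in IP 1 (469 of 1625) lay on a C, against 28.2% of exonic sense substitutions, and in IP 2 the shares were 28.4% and 27.9%. Deletions in a run of 4 or more of the same base made up 23.7% and 26.0% of antisense deletions over exons, against 24.1% and 23.0% of exonic sense deletions, with overlapping intervals in each IP.

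Few antisense bases recurred. Of the antisense sites of IP 1, 387 (2.40%, interval 2.17 to 2.65%) were listed at the same base and strand in IP 2, and 388 of those of IP 2 (1.37%, 1.24 to 1.51%) in IP 1. Intronic sites recurred more often in both lists, by 2.31 and 2.46 percentage points (adjusted p = 1.90e-46 and 1.12e-115, Fisher's exact test as above). In IP 1 the call was lost with a stricter FDR limit (unadjusted p = 0.110, Fisher's exact test) and for deletions alone (unadjusted p = 0.809). For sites with 3 or more mutated tags the direction turned, with antisense recurrence 2.10 points above intronic recurrence in IP 1 (unadjusted p = 0.0353, exact test) and 0.114 points above in IP 2 (unadjusted p = 0.858). Against intergenic sites the difference was 0.151 and 0.105 points and did not pass the test (adjusted p = 0.315 and 0.242, Fisher's exact test). With 3 or more mutated tags antisense recurrence was higher than intergenic by 3.09 and 1.43 points (unadjusted p = 0.00447 and 0.0164, Fisher's exact test). Of the 385 bases listed as antisense with the same mutation type in both IPs, 349 had 2 mutated tags in the IP with fewer, 36 had 3 or more in both, and 327 were substitutions.

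More antisense bases of IP 1 were listed on the host's strand in IP 2 than on their own strand. There were 624 of them (3.87%, interval 3.57 to 4.17%), beside the 387 on the same strand. Within IP 1 itself, 579 antisense bases (3.59%) were also listed on the other strand, and within IP 2 it was 1239 (4.37%). In 575 of those 579 pairs (99.3%) the mutation was of the same type on both strands, and in IP 2 in 1228 of 1239 (99.1%). Of intronic sites, 607 (0.586%) and 1277 (0.9998%) had a listed base on the other strand of the same IP. A pair of an antisense and an intronic site counts in both classes. The counts of the 2 classes were therefore near each other, and the intronic share was lower because intronic sites are more numerous. For intergenic sites the shares were 0.994% and 1.77%. Pairs were found among substitutions (3.70% and 4.65%) as well as deletions (2.94% and 2.99%). Within 50 bases, 4.43% of the antisense sites of IP 1 and 5.12% of those of IP 2 had a sense site of the same IP. The lists do not tell whether reads of both strands came from the same molecules, and what the pairs come from was not tested.

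Per length of sequence, antisense sites were about as dense as sites in sequence with no gene on either strand. By the GENCODE 29 annotation, sequence whose other strand alone lies in a gene held 10.8 sites per megabase in IP 1 and 19.3 in IP 2. Sequence with no gene on either strand held 10.1 and 18.0, a value that is too low because it includes gaps of the assembly. Sequence inside a gene on its own strand held 68.6 and 84.4, which is 6.38 and 4.37 times the antisense density. The lists thus kept strand at least in part, and how much of the antisense signal is a loss of strand was not tested. IP 2, the list with more sites, was higher in all 3 classes.

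**Figure D1:**
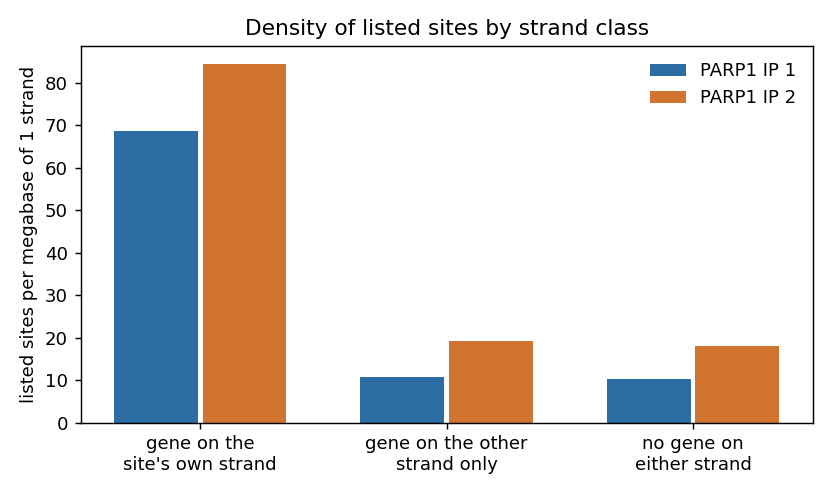
Listed sites per megabase of 1 strand for sequence inside a gene on the site's own strand, opposite to a gene only, and with no gene on either strand, as bars for IP 1 (blue) and IP 2 (orange). The antisense bars, at 10.8 and 19.3, stand beside those without a gene, at 10.1 and 18.0, and far below those inside genes, at 68.6 and 84.4.

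Where in the host the sites lay was not even. Along protein-coding hosts the density was 8.24 per megabase in the first of 10 equal parts, counted from the host's start, and 15.1 in the last in IP 1. In IP 2 it was 14.7 and 23.9. From the third part onward each was higher than the part before it in both IPs. Counting was limited to sequence with no gene on the site's own strand.

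**Figure D2:**
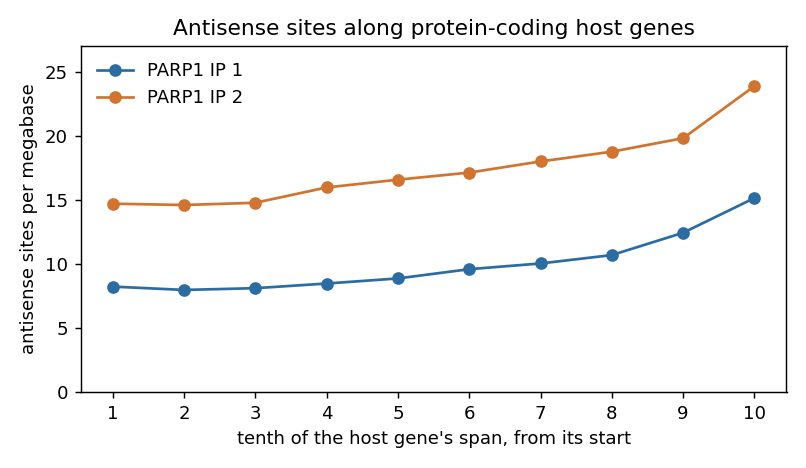
Antisense sites per megabase in 10 equal parts of the span of protein-coding host genes, from the host's start to its end, for IP 1 (blue) and IP 2 (orange). Both lines lie lowest in the first 3 parts and highest in the last, at 15.1 and 23.9.

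Antisense sites were densest just beyond the end of another gene on their own strand. Within 1 kb beyond the end of the nearest protein-coding gene upstream, they stood at 55.01 per megabase in IP 1 and 71.6 in IP 2. The density was 24.5 and 35.4 at 5 to 10 kb, 13.8 and 22.02 at 10 to 50 kb, and 7.86 and 15.2 beyond 100 kb. Genes that themselves had sense sites in both IPs accounted for the highest values, with 83.6 and 92.0 per megabase in the first kb. Behind genes with no sense site the first kb held 14.5 and 20.5, from 19 and 27 sites. Most antisense sites were nevertheless far from any gene end: 41.8% in IP 1 and 36.8% in IP 2 lay within 100 kb, and 12.1% and 9.28% within 10 kb.

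**Figure D3:**
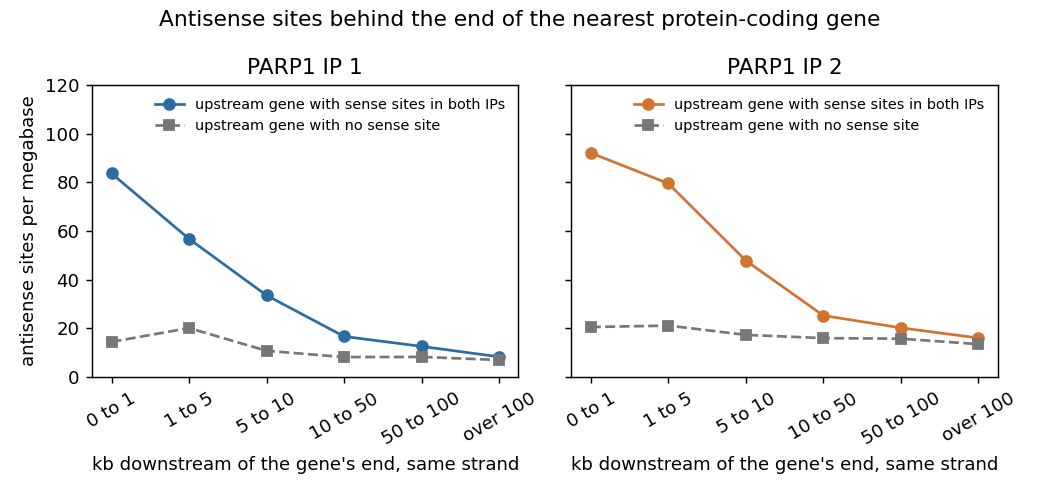
Antisense sites per megabase against distance in kb beyond the end of the nearest protein-coding gene on the same strand, with 1 panel for each IP. Coloured lines are genes with sense sites in both IPs and fall from 83.6 and 92.0 in the first kb to 8.30 and 16.04 beyond 100 kb; grey dashed lines are genes with no sense site and start at 14.5 and 20.5.

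Host exons carried more antisense sites per length than host introns. Over host exons the density was 18.6 and 28.9 per megabase in IP 1 and IP 2, against 9.19 and 16.7 over introns, although 86.3% and 88.0% of antisense sites were intronic. Protein-coding hosts with no exonic sense site held 14.9 and 21.8 antisense sites per megabase of exon. With 1 or 2 exonic sense sites in the IP with fewer it was 29.2 and 35.5, and with 3 or more 28.4 and 50.3, from 104 and 184 sites in 379 genes. Exonic antisense density was thus higher in genes with exonic sense sites than in genes without, and the part of strand loss or mapping in this was not tested.

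Hosts were many and mostly had few sites each. Matched to GENCODE, 7004 genes had an antisense site in IP 1 and 9641 in IP 2, and 4704 had one in both (67.2% of the first and 48.8% of the second). A lone antisense site was all that 53.2% of hosts had in IP 1 and 44.5% in IP 2. Protein-coding genes carried 81.2% and 80.2% of antisense sites, long noncoding genes 15.5% and 16.7%, and pseudogenes 3.07% and 2.99%. Of 19922 protein-coding genes, 3817 had an antisense site in both IPs, which is 19.2% and the background for every list below. That share rose with gene length, from 0.853% in the shortest of 10 equal groups of genes (median span 1941 bases) to 67.6% in the longest (262118 bases).

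Hosts without sense sites had fewer antisense sites. Protein-coding genes with sense sites in both IPs held 10.5 and 18.7 antisense sites per megabase, and those with no sense site 4.51 and 7.82. Of the 482 hosts with 5 or more antisense sites in each IP, 278 had more sense than antisense sites in both, 108 had more antisense sites in both, and 7 had no sense site at all.

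WDPCP, which encodes a planar cell polarity effector needed for cilia, had the most antisense sites. Its span is chr2:63121383-63827843 on the minus strand. IP 1 listed 49 antisense and 59 sense sites there, and IP 2 listed 87 and 48. Antisense sites began 334 kb (IP 1) and 311 kb (IP 2) from its start and ran to 702 and 697 kb of its 706 kb, and sense sites also began only 242 kb from its start. Counted as clusters of sites within 100 bases they were 36 and 69, and 2 bases were listed in both IPs. The nearest protein-coding gene to end upstream on that strand, OTX1, lay 68.1 to 459 kb away and had 1 sense site in each IP.

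In GLRA2 and CC2D2A most sites were antisense in both IPs. GLRA2, a glycine receptor subunit of neurons at chrX:14529298-14731812 (plus strand), had 34 and 32 antisense sites against 2 and 2 sense sites. FANCB, of the Fanconi anaemia DNA repair pathway, ended 147 to 290 kb upstream of these sites on their strand and had 5 and 2 sense sites. CC2D2A, a protein of the ciliary transition zone at chr4:15469865-15601557 (plus strand), had 29 and 33 antisense sites against 2 and 8, and 18 and 28 when counted as clusters. Of the 29, 11 were adjacent bases. Its antisense sites began 3.39 kb beyond the end of FBXL5, an iron-sensing ubiquitin ligase subunit with 9 and 4 sense sites, and reached to 128 kb. No base of either host was listed as antisense in both IPs.

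Further hosts had more antisense than sense sites in both IPs. TACR1, the substance P receptor (chr2:75046463-75199700), had 18 and 29 antisense sites against 0 and 2. C9orf84 had 24 and 18 against 1 and 1. DNAH11, an axonemal dynein heavy chain, had 17 and 29 against 8 and 9, beginning 1.03 kb beyond the end of CDCA7L. EYS, a matrix protein of photoreceptors, had 21 and 42 against 16 and 35. Of its antisense sites, 3 and 9 fell inside a gene on their own strand. For AC117383.1, an annotated antisense RNA gene, all 20 and 19 antisense sites (9 and 15 as clusters) fell inside PXYLP1 on their own strand.

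**Figure D4:**
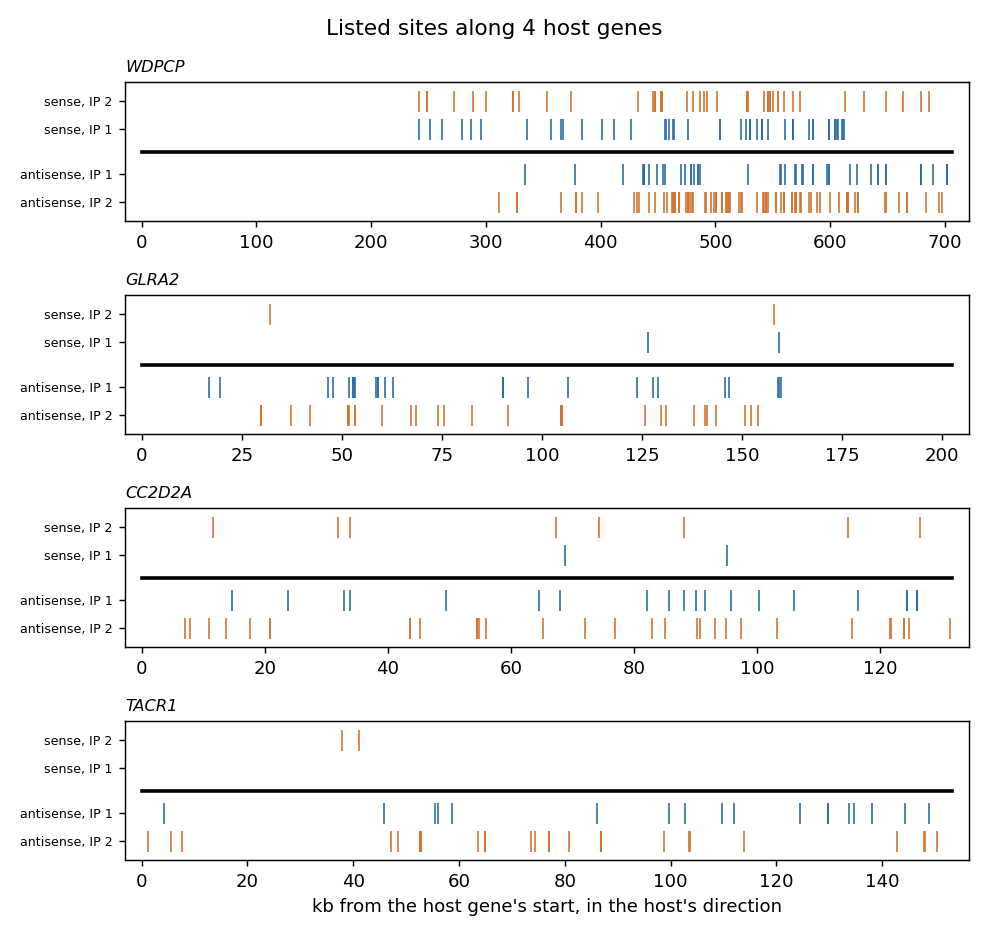
Listed sites along WDPCP, GLRA2, CC2D2A and TACR1, in kb from the host's start in the host's direction. Ticks above the black line are sense sites, ticks below it antisense sites, blue for IP 1 and orange for IP 2; in GLRA2 and TACR1 at most 2 sense sites of an IP stand against 18 to 34 antisense sites, while in WDPCP the sites of both strands lie beyond the early part of the gene.

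Further leading hosts were long genes with many sense sites. MACROD2, which removes mono-ADP-ribose from proteins, had 31 and 51 antisense sites against 175 and 258 sense sites. WWOX, an oxidoreductase gene at a common fragile site, had 22 and 42 against 362 and 418. SMYD3, a lysine methyltransferase, had 22 and 57 against 252 and 251, and ASTN2, a neuronal membrane protein, had 23 and 43 against 162 and 186.

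CDH13, MARCH1, CSMD1 and PAPPA differed between the IPs in which strand led, as WDPCP did. CDH13, a cadherin without a cytoplasmic domain, had 32 antisense and 18 sense sites in IP 1 but 29 and 45 in IP 2. MARCH1, a ubiquitin ligase, had 24 against 7 in IP 1 and 22 against 30 in IP 2. CSMD1, a large membrane protein, had 29 against 20 (19 antisense clusters) and then 44 against 46. PAPPA, a protease that cleaves binding proteins of insulin-like growth factor, had 27 against 23 and then 23 against 29. Its antisense sites lay 23.4 to 221 kb beyond the end of ASTN2, on the strand of ASTN2.

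**Figure D5:**
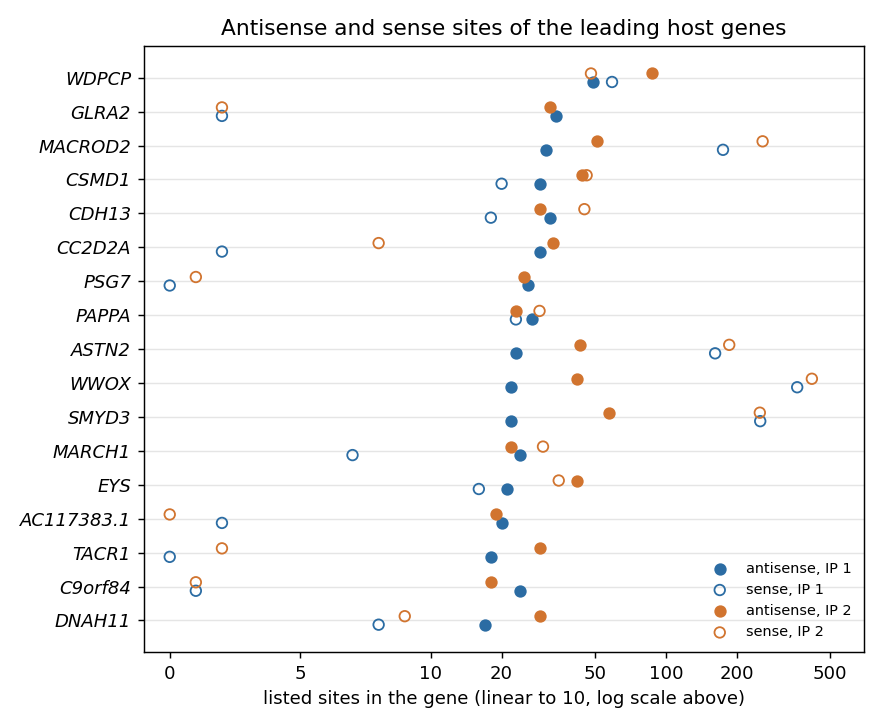
Antisense (filled) and sense (open) sites of the 12 hosts with most antisense sites and the 8 with most among those where antisense sites outnumbered sense sites, for IP 1 (blue) and IP 2 (orange), on an axis that is linear to 10 and logarithmic above. GLRA2, CC2D2A, PSG7, AC117383.1, TACR1, C9orf84 and DNAH11 have filled points to the right of the open ones in both IPs, and MACROD2, WWOX, SMYD3 and ASTN2 the reverse.

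Among the densest hosts were pregnancy-specific glycoprotein genes of chromosome 19, which encode secreted proteins of the placenta. PSG4, 14598 bases long, ranked first by density. It had 13 and 21 antisense sites against 1 and 1 sense sites, which is 8.91 and 14.4 antisense sites per 10 kb. PSG5 had 7 and 11 antisense sites (3.45 and 5.42 per 10 kb) against 10 and 4 sense sites. The neighbouring CEACAMP10, a pseudogene, had 9 and 16 (2.44 and 4.34) against 0 and 4. The lists gave PSG7 26 and 25 antisense sites, but 22 and 23 of them lay outside its GENCODE span, so no density is given. Of these 26 and 25 sites, 20 and 11 fell inside a gene on their own strand. Members of this family have near-identical copies, and how reads with several matches were assigned is not given in the sources used here, so which copy the sites belong to is uncertain. The 10-kb window with the most antisense sites in both IPs, chr19:43200001-43210000 on the plus strand, lay in PSG4 and held 10 and 13.

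The other dense hosts differed in what lay on the sites' own strand. NUDT13, of a family of nucleotide hydrolases, had 8 and 9 antisense sites (3.73 and 4.20 per 10 kb) against 0 and 2 sense sites. Its antisense sites lay 0.175 to 19.4 kb beyond the end of ECD, which had 9 and 11 sense sites. CTSZ, a lysosomal protease, had 6 and 5 antisense sites (4.97 and 4.14 per 10 kb) against 9 and 11 sense sites. Those antisense sites lay 0.380 to 12.1 kb beyond NELFCD, a subunit of the negative elongation factor. RNF32 had 12 and 10 antisense sites, of which 7 and 7 fell inside LMBR1 on their strand, against 1 and 7 sense sites. All 10 and 17 of the pseudogene MFSD13B (4 and 9 as clusters) fell inside CDR2, and it had 0 and 1 sense sites. The noncoding gene LINC01291 had 9 and 6 antisense sites (2 and 5 as clusters) and no sense site, and the nearest protein-coding gene to end upstream, TACR1, lay 109 to 127 kb away.

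The antisense bases with the most mutated tags in both IPs were few. In ZNF276, a zinc finger gene, the base chr16:89734725 on the minus strand had 8 of 8 tags mutated in IP 1 and 8 of 12 in IP 2, and chr16:89734719 had 8 of 8 and 7 of 10. The antisense sites of ZNF276 lay 2.82 to 6.33 kb beyond FANCA, another Fanconi anaemia gene, which had 52 and 48 sense sites. In ITGA3 the first site printed above, at chr17:50089998, had 6 of 9 tags mutated in IP 1 and 5 of 9 in IP 2, and the second, at chr17:50089934, 4 of 4 and 6 of 6. ZFPM1 had 5 of 5 and 6 of 6 at chr16:88531195, the base in capitals in the promoter of ZFPM1-AS1. ALPK2, an atypical kinase, had a run of adjacent deleted bases from chr18:58512740 to chr18:58512744 with 5 mutated tags in IP 1 and 10 in IP 2 at each base. Such neighbouring bases can come from the same tags.

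Hosts with the most shared antisense bases were KCNH1, a voltage-gated potassium channel, MFSD13B and GYPE, a glycophorin gene, with 6 each. LINC01376, ALPK2 and PTPRE, a protein tyrosine phosphatase, had 5 each, and PDPR, a regulator of pyruvate dehydrogenase phosphatase, PSG4 and ULK1, an autophagy kinase named beside the rule because it tied, had 4 each. As clusters, the 12 and 19 antisense sites of KCNH1 were 7 and 14, and the 12 and 14 of ALPK2 were 8 and 7. Sense sites were more numerous in both IPs in KCNH1 (82 and 91), PTPRE (79 and 47) and ALPK2 (30 and 36). The same held for LINC01376 (19 and 18) and PDPR (18 and 18). They were fewer than the antisense sites in MFSD13B (0 and 1), GYPE (0 and 2) and PSG4 (1 and 1). All 8 and 20 antisense sites of GYPE lay in AC139713.2 on their own strand. In all, 296 genes had a shared antisense base and 56 had 2 or more.

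The mitochondrial chromosome held few antisense sites but the deepest ones. Of its 8 listed sites in IP 1, 6 were antisense, and of 13 in IP 2, 8 were. The largest were opposite MT-ND5, a subunit of respiratory complex I, at chrM:13157 in IP 1 (131 tags, 3 mutated) and chrM:12691 in IP 2 (132 tags, 3 mutated). Opposite MT-CO3, a subunit of cytochrome oxidase, the base chrM:9868 had 125 tags in IP 1. Both strands of this chromosome are transcribed in full, and at these sites most tags carried no mutation. Most antisense sites of the nucleus had 2 tags, both mutated. Deep nuclear sites differed among themselves in IP 1: opposite PSMD14, 2 of 14 tags were mutated, and opposite ANKRD11, 10 of 10.

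Matrix and basement membrane genes were hosts as well. Of 35 collagen, laminin and basement membrane genes, 17 had an antisense site in both IPs (48.6%), where the background over protein-coding genes was 19.2%. Their median span was 108584 bases, against 27151 for all protein-coding genes. The share moves with span, as described above, and was 39.8% in the group of genes with a median span of 117011 bases. No comparison with genes of like length was made, so whether the count is particular to the matrix was not tested. FN1 (chr2:215360440-215436172, minus strand) had 7 and 9 antisense sites against 20 and 18 sense sites. LAMA2, a laminin chain, had 7 and 9 against 4 and 22, and COL8A1 8 and 6 against 39 and 45. COL4A3, COL4A5 and COL4A6 had none in either IP, with 0 and 0, 7 and 4, and 2 and 2 sense sites.

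Exons made up 22.9% of the span of FN1 but lay under 5 of its 7 antisense sites in IP 1 and 6 of 9 in IP 2. The exonic sense sites of FN1 numbered 4 and 5. In HSPG2, whose exons make up 15.7% of the span, it was 2 of 2 and 6 of 9, and in COL4A1 (9.31% exonic) 2 of 4 and 2 of 9. FN1, HSPG2 and COL4A1 were chosen because they had a shared antisense base over an exon. An exonic site in each IP was thus given by the choice, and these counts cannot show a preference for exons. The shared base of FN1 had 2 of 2 tags mutated in IP 1 and 4 of 6 in IP 2, that of COL4A1 2 of 2 in both, and that of HSPG2 2 of 2 and 4 of 4.

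The actin and adhesion genes of epithelium had an antisense site in both IPs in 14 of 30 cases (46.7%, background 19.2%), at a median span of 92185 bases. MYH10, a nonmuscle myosin, had 4 and 15 against 32 and 37 sense sites. Of its antisense sites, 1 and 7 fell inside NDEL1 on their strand. PTK2, focal adhesion kinase, had 3 and 9 against 87 and 78 sense sites. ACTB, TJP1 and TLN1 had none.

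All 30 genes of the list of common fragile sites, regions that break under replication stress, had antisense sites in both IPs, with medians of 8 and 13.5 sites a gene. Their median span was 1138190 bases, longer than that of the longest of the 10 groups of protein-coding genes. All 30 also had sense sites in both IPs (50.8% of all protein-coding genes did), with medians of 48.5 and 61. MACROD2, CSMD1 and WWOX, described above, led the list.

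Of the PARP family and its partners, 8 of 20 matched genes had an antisense site in both IPs (40.0%, background 19.2%). The median span of the list was 63802 bases, against 27151 for all protein-coding genes. In the group of protein-coding genes with a median span of 70645 bases the share was 26.2%. No comparison with genes of like length was made. MACROD2 is among the 8 genes of this list, and MACROD1, a related hydrolase, had 4 and 3 against 37 and 41 sense sites. PARP8, a mono-ADP-ribosyltransferase, had 3 and 4 against 13 and 20. PARP1 itself had 0 and 1 antisense sites against 13 and 14 sense sites. PARP4, PARP11 and PARP16 had none, although PARP4 had 10 sense sites in each IP.

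Genes whose antisense partner is in textbooks had a share near the background. Of 28 such genes, 6 had an antisense site in both IPs (21.4%, background 19.2%) and 15 had none in either. The lists put most sites inside a gene on their own strand in that gene's intron or exon. Only 5.87% of antisense sites in IP 1 and 4.60% in IP 2 lay inside a GENCODE gene on their own strand. Sites inside an annotated antisense RNA were thus mostly not members, and this share cannot show whether such RNAs were in the IPs. WNT4, a secreted signalling protein, had 3 and 4 antisense sites against 0 and 1 sense sites, and 5 of those 7 lay over exons. PRKAG2, a subunit of AMP-activated kinase, had 2 and 8 against 29 and 27 sense sites. TGFB2, a growth factor of the transforming family, had 2 and 4 against 19 and 49. BDNF, KCNA2 and UBE3A had none, beside 7 and 6, 1 and 0, and 10 and 19 sense sites. Promoter windows from RefSeq (250 bases before and 50 after a start) of genes on the other strand held 52 antisense sites of IP 1 (0.322%) and 92 of IP 2 (0.324%). Most of such a window lies before its gene, where a site is not antisense to that gene. How much antisense sequence the windows cover was not computed, so these counts cannot show whether antisense sites are rare at promoters.

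Markers of the cell type were checked in the same lists. Sense sites in both IPs were found in 50.8% of all protein-coding genes. Of 14 markers of renal epithelium, 10 had sense sites in both IPs and 4 (LRP2, CDH2, CDH6 and HNF4A) antisense sites in both. ANPEP and AQP1, defining markers of the proximal tubule, had no site on either strand. Of 7 markers of other kidney cells, 2 had sense sites in both IPs and none had antisense sites in both.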

How the data were processed

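RNA immunoprecipitation with a Flag antibody was done in HK-2 cells (2 PARP1 IPs, 2 inputs). No crosslinking step is described in the labels' protocols. The submitters' processing notes name bcl2fastq, TopHat2 and the build GRCh38. No site caller, setting, handling of duplicates or strand protocol is given in the sources used here. For each site the authors deposited counts of tags and of mutated tags, and a value labelled FDR. How that FDR was computed is not given in the sources used here. Library depth is unknown, and only tags at the sites can be summed: 34847 over antisense sites in IP 1 and 60714 in IP 2.

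The region class and gene identifier were the authors'. Identifiers were matched to GENCODE 29 without version, leaving 128 and 268 antisense sites unmatched, and 0.812% and 0.805% of matched sites lay outside their host's GENCODE span. Intervals are exact Clopper-Pearson at 95%. Classes were compared by two-sided Fisher's exact tests with Benjamini-Hochberg adjustment (threshold 0.05) in SciPy 1.17.1, with pandas 2.3.3 and Python 3.11.15. Antisense densities per megabase count sites with no gene on their own strand; those per 10 kb of a host count all its antisense sites. Functions were tested on simulated data.

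Named hosts were the 12 with most antisense sites in the IP with fewer, the 8 densest per 10 kb with 5 or more in each IP, the 8 with most shared bases, the 6 with the strongest shared base, the 8 with most antisense sites among those with more antisense than sense in both, up to 3 leading and 3 empty members of each list, and the 5 fullest 10-kb windows. The density rule left out hosts with sites outside their span. Sequence windows were shortened from the planned 31 to 29 bases. The members and the gene lists were chosen with earlier results of these data known. Repeat content was not analysed here. A member of the adhesion list that the rule names is not reported here.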

Additional observations from a re-analysis of the deposited data

How the results depend on the processing

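No paired analysis was possible because the inputs, which share replicate numbers with the IPs, have no list used here. The mean antisense share of both lists was 11.03%; it was 7.15% when the FDR had to be below its most common value, 4.69% with 3 or more mutated tags and 7.41% for deletions, and 9.71 to 12.3% with either IP left out. Recurrence of IP 1 antisense bases, 2.40%, was 6.67% with 3 or more mutated tags, 1.72% for deletions, 6.06% when either strand counted, and 1.37% as a share of IP 2. It needs both IPs, so neither could be left out. The deficit against introns in IP 1 was -0.482 points with the FDR limit and -0.0946 for deletions, neither past the test, and turned to 2.10 points (IP 1) and 0.114 (IP 2) with 3 or more mutated tags. The difference from intergenic sites turned to 0.446 and 0.269 points with the FDR limit, 3.09 and 1.43 with 3 or more mutated tags (past an unadjusted 0.05), and 0.0508 and 0.0211 for deletions. The causes were not tested. Hosts in both IPs fell from 4704 to 710 with the FDR limit, 98 with 3 or more mutated tags and 1894 with 2 clusters in each IP; a single IP gave 7004 to 9641. Of the 12 leading hosts, 1 stayed when ranked per 10 kb (PSG7, whose sites lie mostly outside its span, so its density means nothing), and 7 to 11 with 1 IP alone: CDH13, GLRA2, MARCH1, PAPPA and PSG7 left without IP 1, and WWOX without IP 2. Antisense density over that without a gene, 1.07, was 1.08 as clusters and 1.06 to 1.07 with either IP left out, and own-strand over antisense density was 4.37 to 6.38, alternatives added after seeing the data. Counted as clusters, 38 of 46 named hosts stayed within 1.5 times; CC2D2A, CSMD1, AC117383.1, ALPK2, KCNH1, MFSD13B, LINC01291 and ITGA3 did not. Sites of 2 tags limit all of this: a base seen in 1 IP may have been uncovered in the other.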
